A study of Mus musculus with 12 samples.

Results

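Fibronectin and 9 genes of matrix breakdown were followed across 12 arrays of mouse marrow dendritic cells: the matrix metalloproteinases Mmp2, Mmp8, Mmp9, Mmp12, Mmp13 and Mmp14, their inhibitors Timp1 and Timp2, and the ADAM-like protease Adamdec1, with Fn1 as a matrix substrate. They were chosen by name, with earlier results of these data known. They are 10 of the 18193 genes that the array measures with probe sets of their own and are covered by 20 of its 45101 probe sets. All 10 passed the filter on low values, which 12429 genes passed. Marrow cells were cultured with GM-CSF at 20 ng/ml over 10 days, in every group. The groups were a control without retinoid, all-trans-retinoic acid (RA, labelled 10 nmol) and Ro41-5253 (Ro, labelled 100 nmol), with the retinoids present from the first day. Each was run without LPS and with LPS at 1 ug/ml. The length of the LPS exposure is not given in the sources used here. Every one of the 6 conditions had 1 culture from BALB/c and 1 from BL6 mice, aged 6 to 8 weeks, so that replicate 1 is always BALB/c and replicate 2 always BL6. No genotype beyond the strain is named. Strain and replicate number are the same variable here, so a batch shared by a replicate number and a strain effect cannot be told apart.

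Fibronectin is a secreted glycoprotein that cells bind through integrins. Metalloproteinases are zinc enzymes that cut matrix proteins, and most are secreted as inactive precursors. Mmp8 and Mmp13 cut fibrillar collagen, Mmp2 and Mmp9 cut denatured collagen and basement membrane, Mmp12 cuts elastin, and Mmp14 sits in the cell membrane, where it activates pro-Mmp2. Tissue inhibitors of metalloproteinases bind the active enzymes, and Timp2 also takes part in the activation of pro-Mmp2 by Mmp14. Adamdec1 is a secreted protease that is expressed in maturing myeloid cells. RA binds and activates retinoic acid receptors, Ro is an antagonist selective for the alpha receptor, and LPS, a bacterial cell wall component, matures dendritic cells through a Toll-like receptor.

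The median signal per array ran from 21.4 to 41.8, and a signal under 41.8 is called background here. Of 12 dendritic cell markers on the array, 9 to 11 lay above background on both arrays of a condition, and their summed signal ran from 27495 to 56303. Of 12 stromal markers 0 to 3 did so, and of 6 lymphocyte markers 0. Macrophage markers were present in every condition. Their summed signal ran from 27588 to 61514 except with Ro and LPS together, where it was 4414 in the BALB/c and 9909 in the BL6 culture. The summed signal of the granulocyte markers ran from 3812 to 53590. Changes are log2 differences of signal + 16, given relative to the median change of all tested genes in the same comparison, with the standard error of the model after the plus-minus sign. Folds come from the same relative changes. A gene rose or fell where the adjusted p (limma, Benjamini-Hochberg over 12429 genes) was under 0.05. The test is made at the deposited scaling, where LPS moved the median gene by -0.41 and Ro by 0.23. Each p-value reflects variation among these 12 arrays alone. Each condition held a single array per strain, so that this variation includes differences between the strains in their responses. The rest may be technical, since no label says that the cultures of a strain came from separate animals. In such bulk samples, fewer cells of a type and less RNA per cell cannot be told apart.

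LPS went with lower Fn1, Mmp8, Mmp9, Mmp12, Timp2 and Adamdec1 and with higher Mmp14 and Timp1, averaged over the retinoid conditions with 6 arrays against 6. These are 6 falls and 2 rises among 10 genes, against a background of 58.9% of all tested genes past the threshold, 11% higher and 47.9% lower. The median change of the 10 genes was -0.47 relative to the median of all tested genes. Of all genes past the threshold with LPS, 18.7% were higher at the deposited scaling and 45.6% after quantile normalization. Ro went with 6 falls and 0 rises, against 18.5% of all genes past the threshold and 4.36% lower. After quantile normalization 6.6% of all genes were lower with Ro. The median of the 10 genes with Ro was -1.59. Macrophage markers moved the same way, with 5 of 11 tested lower with Ro and a median of -1.67, while 3 of 12 dendritic cell markers rose. The part of these cells in the falls of Fn1, Mmp2, Mmp8, Mmp12, Mmp14 and Timp2 was not tested. RA went with no call among the 10 genes, against 0% of all genes past the threshold (1024 had an unadjusted p under 0.05). For 4 of the 10 the unadjusted p with RA was under 0.05. The RA and the Ro comparisons share their control arrays.

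**Figure D1:**
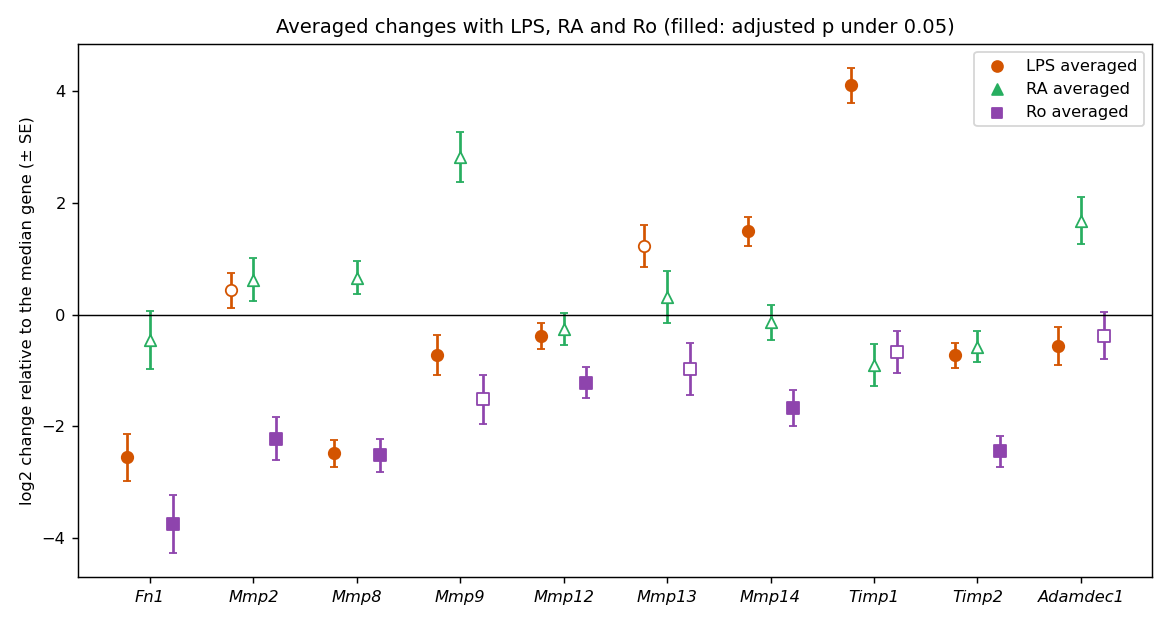
Relative log2 change of each gene (vertical axis, with bars for the standard error of the model) averaged over the other factors, for LPS (circles), RA (triangles) and Ro (squares). Filled symbols passed the adjusted threshold of 0.05. Every Ro value lies below 0, from -0.38 for Adamdec1 to -3.75 for Fn1. No RA value is filled, the highest being Mmp9 at 2.83.

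Fn1, the fibronectin gene, was high in resting cultures without retinoid and low wherever LPS or Ro was present. Its signal was 10440.1 in the BALB/c and 10698 in the BL6 control culture. With LPS it was 879 and 305, with Ro 555 and 173, and with both 139 and 94.7. The groups did not overlap in any of these comparisons. Without retinoid, Fn1 fell 13.7-fold with LPS (-3.78 ± 0.43, adjusted p = 6.0e-05). Without LPS, it fell 36.0-fold with Ro (-5.17 ± 0.43, adjusted p = 0.00104). Averaged over the other factors, the change was -2.56 ± 0.43 with LPS (adjusted p = 9.2e-05) and -3.75 ± 0.52 with Ro (adjusted p = 0.00197). RA left the signal at 6701 and 4519 without LPS, below both controls. This change of -0.91 ± 0.43 was not past the threshold (adjusted p = 0.686).

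The drop of Fn1 with LPS was 7.38-fold in the presence of RA (adjusted p = 3.6e-04) and 1.98-fold in the presence of Ro (adjusted p = 0.0378). The difference between the LPS change with Ro and without retinoid was 2.83 ± 0.61, which missed the threshold (adjusted p = 0.0585). It passed after quantile normalization, at 3.12 (adjusted p = 0.0304). The LPS change in Ro cultures was lost in 11 of 20 alternative settings, with adjusted p from 0.0533 to 0.268 on leaving out either Ro array or either array of Ro with LPS. The drop with Ro in LPS cultures, -2.32 ± 0.43 (adjusted p = 0.00902), was lost without the BALB/c array of LPS alone (adjusted p = 0.0651) or of Ro with LPS (adjusted p = 0.0711). The second Fn1 probe set moved in the same order, from 487 and 563 in the controls to 45.9 and 23.5 with LPS, 15.7 and 6.05 with Ro and 5.35 and 2.68 with both, all but 1 of the last 6 values being in background. Fitted on its own, it passed the test of the difference between the LPS changes with and without Ro (2.89 ± 0.49, adjusted p = 0.0243). As all its Ro values were in background, with and without LPS, this test cannot tell a smaller LPS fall from the floor of the signal. The RA change of this probe set without LPS was -1.98 ± 0.35 (adjusted p = 0.0624).

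**Figure D2:**
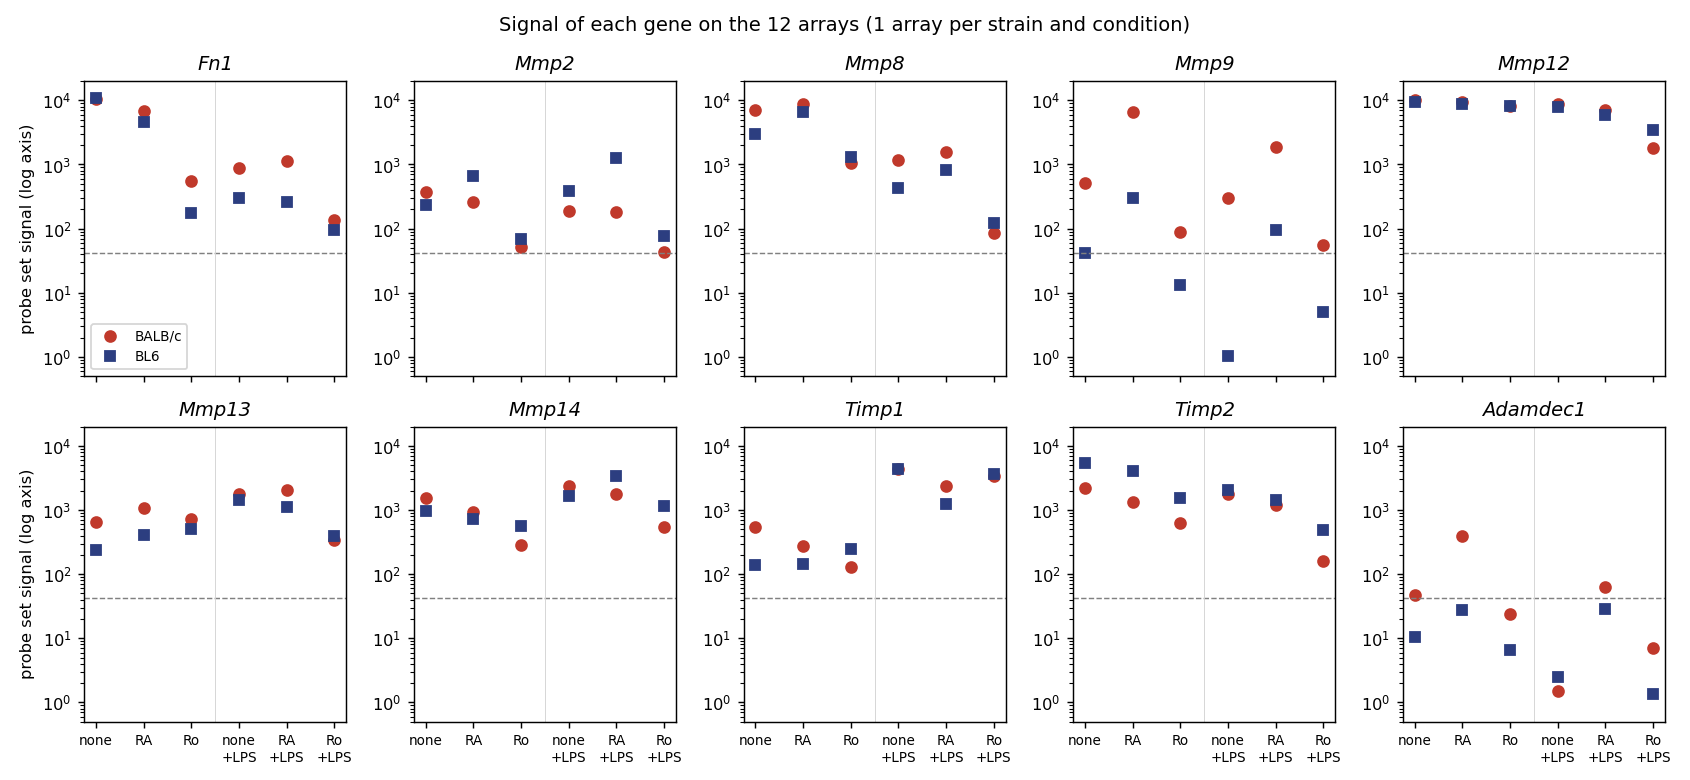
Signal of the 10 genes on the 12 arrays (vertical log axis; circles are BALB/c and squares BL6 cultures; the dashed line is the highest array median, 41.8). Fn1 is highest in the 2 controls, at 10440.1 and 10698, and lowest with Ro and LPS together, at 139 and 94.7, while the lowest Timp1 value with LPS (1255) lies above the highest without it (538).

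The collagenase genes Mmp8 and Mmp13 moved in different ways. Mmp8, known as the neutrophil collagenase, had signals of 7142 (BALB/c) and 3032 (BL6) in control cultures, 8903 and 6465 with RA, and 1059 and 1313 with Ro. With LPS these were 1186 and 432, 1578 and 829.7, and 86.8 and 122. Both arrays with LPS lay below both without it in each retinoid condition, and Ro with LPS was the lowest condition. Mmp8 fell 5.61-fold with LPS (-2.49 ± 0.24, adjusted p = 1.9e-06) and 5.73-fold with Ro (-2.52 ± 0.30, adjusted p = 0.00101). The LPS fall was 4.42-fold without retinoid, 4.95-fold with RA and 7.89-fold with Ro (adjusted p = 6.3e-04, 8.8e-04 and 2.7e-04). Its difference between Ro and no retinoid was -0.80 ± 0.59 (adjusted p = 0.639). Without LPS the Ro fall of 4.37-fold (adjusted p = 0.0331) was lost on leaving out any 1 of the 6 arrays without LPS (adjusted p from 0.0541 to 0.254).

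Granulocyte markers moved with Mmp8 in the LPS comparison, where 8 of 9 tested markers fell and 1 rose, with a median of -2.69. Their summed signal was 17573 and 14120 in the control cultures, 53590 and 23720 with RA and 11206 and 34526 with Ro. With LPS it was 10355 and 6352 in the control cultures, 14398 and 12418 with RA and 3812 and 10036 with Ro. Most of each sum with LPS came from Lcn2, the marker that rose. Its LPS signals were 9169 and 5377 in the control cultures, 10717 and 11196 with RA and 3470 and 7893 with Ro. S100a8, among those that fell, went from 5492 and 5431 in the control cultures to 466 and 531 with LPS. In the Ro comparison 0 of 9 granulocyte markers passed, with a median of -0.07, while Mmp8 fell. Their part in the Mmp8 result was not tested.

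Mmp13, a collagenase best known from cartilage and bone, rose with LPS without retinoid and with RA but not with Ro. Its signal was 654 (BALB/c) and 236 (BL6) in control cultures and 1795 and 1411 with LPS. With RA it was 1069.8 and 406, and 2075 and 1130.0 with LPS. With Ro it was 713 and 503, and 342 and 387 with LPS. Control and RA arrays with LPS thus lay above their partners without it, and Ro arrays with LPS lay below theirs, with no overlap in any of the 3 comparisons. Mmp13 rose with LPS by 2.50 ± 0.36 without retinoid (5.64-fold, adjusted p = 0.00144) and by 1.60 ± 0.36 with RA (3.02-fold, adjusted p = 0.0245). With Ro the LPS change was -0.35 ± 0.36 (adjusted p = 0.165). The averaged LPS change was 1.23 ± 0.37 and missed the threshold (adjusted p = 0.0773, and 0.0154 after quantile normalization).

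The difference between the LPS change of Mmp13 with Ro and without retinoid was -2.81 ± 0.50 (adjusted p = 0.0449), where 0.644% of all tested genes passed and 0.386% of all tested genes passed with a lower value. Mmp13 was the only one of the 10 genes past the threshold in this test. The call was lost in 13 of 20 alternatives, among them each of 8 settings that left out 1 array (adjusted p from 0.055 to 0.198). The value itself stayed between -3.17 and -2.45 in all 20. In the presence of LPS, Mmp13 fell 5.16-fold with Ro (-2.37 ± 0.36, adjusted p = 0.00329), a call kept in all 20 alternatives. Without LPS the Ro value was 0.42 ± 0.36 (adjusted p = 0.432). The rise with LPS in RA cultures was lost without either array of RA with LPS (adjusted p = 0.128 and 0.0547 for BALB/c and BL6) and without the BL6 array of RA (adjusted p = 0.182).

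**Figure D3:**
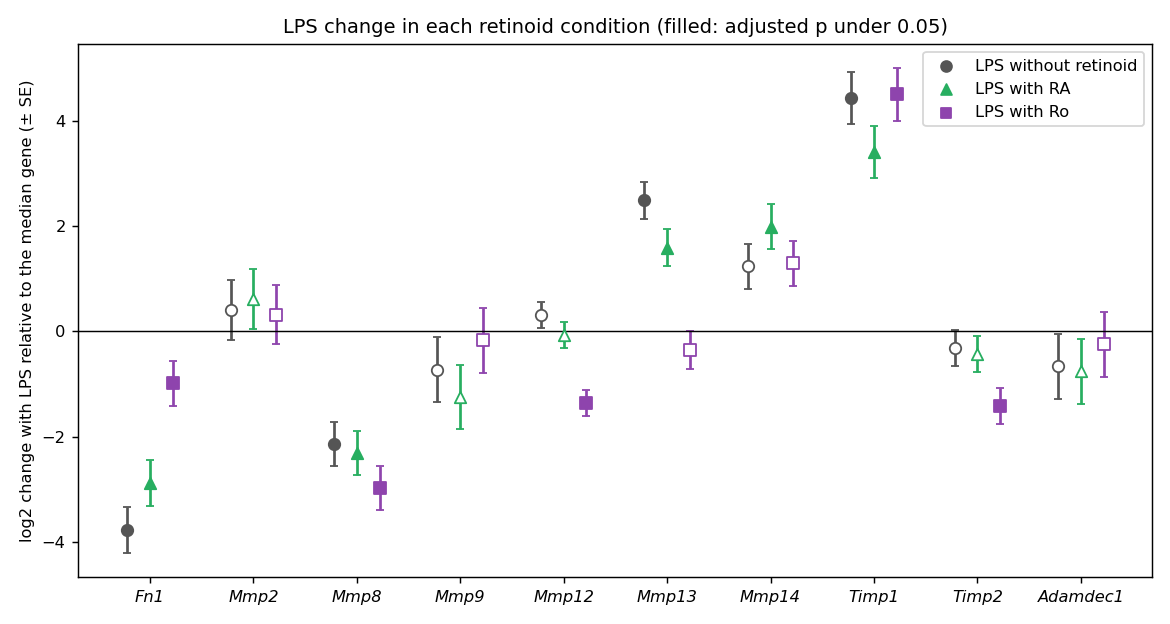
Relative log2 change with LPS of each gene (vertical axis, bars for the standard error of the model) in cultures without retinoid (circles), with RA (triangles) and with Ro (squares), 2 arrays against 2 in each. Filled symbols passed the adjusted threshold of 0.05. Mmp13 lies at 2.50 without retinoid, 1.60 with RA and -0.35 with Ro, and Mmp12 at 0.32, -0.06 and -1.35.

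The stretch before the start site is shown for the 3 genes with a rise after LPS, Mmp13, Mmp14 and Timp1, so that their promoters can be compared. The sequences are from RefSeq (GRCm38.p6), 250 bases on the strand of the gene, 5′ to 3′, and end just before the start site: chr9:7272264-7272513 for Mmp13, chr14:54431348-54431597 for Mmp14 and chrX:20869916-20870165 for Timp1, all on the plus strand. Capitals mark an AP-1 motif and a TATA box where they occur.
Mmp13: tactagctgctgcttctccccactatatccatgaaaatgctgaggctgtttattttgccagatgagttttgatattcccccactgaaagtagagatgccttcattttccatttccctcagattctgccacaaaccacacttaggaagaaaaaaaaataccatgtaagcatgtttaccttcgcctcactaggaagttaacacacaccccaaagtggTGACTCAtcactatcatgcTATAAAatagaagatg
Mmp14: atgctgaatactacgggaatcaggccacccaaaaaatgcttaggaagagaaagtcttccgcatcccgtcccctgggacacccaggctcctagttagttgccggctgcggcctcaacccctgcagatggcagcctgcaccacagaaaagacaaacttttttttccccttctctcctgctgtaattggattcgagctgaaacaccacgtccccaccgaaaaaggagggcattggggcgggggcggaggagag
Timp1: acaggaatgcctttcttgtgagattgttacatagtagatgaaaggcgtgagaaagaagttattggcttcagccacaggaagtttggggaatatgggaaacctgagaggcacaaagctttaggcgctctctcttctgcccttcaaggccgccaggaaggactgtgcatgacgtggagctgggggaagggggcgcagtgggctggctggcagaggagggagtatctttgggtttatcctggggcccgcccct

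Mmp13 held the AP-1 letters TGACTCA at 35 to 29 bases before its start site and TATAAA at 16 to 11 bases before it. The 3 motifs searched were AP-1 as TGANTCA and AGGTCA, a hexamer from which the sites of retinoid and many other nuclear receptors are built, on both strands, and the TATA box as TATAAA on the strand of the gene. Of 32851 mouse promoters of the same length, 6.75% held the AP-1 letters, 14.0% the nuclear receptor hexamer and 7.59% the TATA letters. None of these letters was found in the windows of Mmp14 and Timp1. Promoter entries matched 6 of the 10 genes, with 7 start sites, and those of Mmp8 and Timp2 held none of the motifs either. The second of 2 Mmp12 start sites had TGAGTCA at 44 to 38 bases and the nuclear receptor hexamer, read as TGACCT, at 99 to 94 bases before it, and the first had none. A match of letters is a description of the window only. Fn1, Mmp2, Mmp9 and Adamdec1 were not matched.

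Of the gelatinase genes, Mmp2 was lowest in the Ro cultures, and Mmp9 differed between the strains within each condition. Mmp2 signals were 367 (BALB/c) and 237 (BL6) in control cultures, 262 and 664 with RA and 51.3 and 68.7 with Ro. With LPS they were 188 and 388, 184 and 1247, and 42.7 and 78.1. All 4 Ro arrays lay below all 8 others. Mmp2 fell 4.67-fold with Ro (-2.22 ± 0.38, adjusted p = 0.00667) and showed no change past the threshold with LPS (0.44 ± 0.31, adjusted p = 0.958) or RA (0.63 ± 0.38, adjusted p = 0.683). The Ro fall in LPS cultures, 4.71-fold (adjusted p = 0.0326), was lost on leaving out any of the 4 arrays compared (adjusted p from 0.0985 to 0.171).

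The strains differed in the sign of the Mmp2 differences with LPS and RA at the deposited scaling, while Ro arrays were lower in both. Without reference to the median gene, the log2 LPS differences of Mmp2 in the BALB/c cultures were -0.91, -0.47 and -0.20, in control, RA and Ro. In the BL6 cultures they were 0.67, 0.89 and 0.15. With RA, BALB/c showed differences of -0.46 and -0.02 (without and with LPS) and BL6 differences of 1.42 and 1.64. Relative to the median gene, and with each strain fitted alone, the averaged LPS value of Mmp2 was 0.0031 in BALB/c and 0.89 in BL6, so that the opposite sign with LPS is not seen on that scale. The averaged RA value was -0.22 in BALB/c and 1.47 in BL6. Neither interaction with strain passed: that with LPS was -0.85 ± 0.56 (adjusted p = 0.494) and that with RA -1.66 ± 0.50 (unadjusted p = 0.00743, adjusted p = 1). Of all genes 0.113% passed for strain by LPS and 0% for strain by RA, and of the 10 genes 0 in either.

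Mmp9, also known as gelatinase B, was brightest in BALB/c cultures with RA. BALB/c signals were 517 in the control, 6541 with RA and 90.0 with Ro, and 303, 1873 and 55.7 in the same order with LPS. BL6 signals were 41.9, 305 and 13.1, and 1.05, 96.6 and 5.10 with LPS. In each of the 6 conditions the BALB/c array was the brighter one, and within each strain RA was the highest retinoid condition with and without LPS. Mmp9 was higher in BALB/c by 3.10 ± 0.36 (adjusted p = 2.3e-04), with values from 2.31 to 4.07 over the alternatives, since 3 of the 6 BL6 arrays were in background. The second Mmp9 probe set, with BALB/c signals from 64.5 to 2482 and BL6 signals from 23.2 to 331, was higher in BALB/c by 2.01 ± 0.38 (adjusted p = 0.00236).

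The RA value of Mmp9 was 2.83 ± 0.44 (7.09-fold) and narrowly missed the threshold (adjusted p = 0.057). It passed when the average was taken from the model of the 6 conditions (adjusted p = 0.0278) and without the BALB/c array of Ro (adjusted p = 0.046). In BALB/c the signal with RA was 12.7 times the control without LPS and 6.19 times with LPS, and in BL6 without LPS it was 7.28 times the control. The BL6 controls were 41.9 without LPS and 1.05 with LPS, so the BL6 part of the change rests on values near or in background. The second Mmp9 probe set, fitted on its own, gave a smaller averaged RA value of 1.80 ± 0.46 (adjusted p = 0.261). In LPS cultures its RA value was 1.18 ± 0.59 (adjusted p = 0.54). Granulocyte markers had a median of 1.06 with RA, none of 9 past the threshold, and their part in the Mmp9 value was not tested. Ro gave -1.52 ± 0.44 (adjusted p = 0.0591, and 0.0259 without the BL6 array of Ro with LPS). The LPS fall of 1.66-fold (adjusted p = 0.0162) was lost after quantile normalization (adjusted p = 0.0909) and without the BALB/c array of RA (adjusted p = 0.0502).

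Mmp12, the macrophage elastase gene, was lower in the Ro cultures with LPS than anywhere else. Its signal was between 5953 and 10159 on the other 10 arrays and was 1813 (BALB/c) and 3484 (BL6) with Ro and LPS together. Those 2 arrays stand below all others. Mmp12 fell 2.56-fold with LPS in Ro cultures (-1.35 ± 0.24, adjusted p = 6.2e-04) and 4.07-fold with Ro in LPS cultures (-2.02 ± 0.24, adjusted p = 0.00134). Both calls held in all 20 alternatives. The LPS value was 0.32 ± 0.24 without retinoid (adjusted p = 0.51) and -0.06 ± 0.24 with RA (adjusted p = 0.161), neither past the threshold. Without reference to the median gene these log2 changes were -0.21 and -0.47. Without LPS the Ro value was -0.41 ± 0.24 (adjusted p = 0.64), and the difference between the LPS changes with and without Ro was -1.63 ± 0.35 (adjusted p = 0.0841). The averaged LPS change, -0.38 ± 0.23 (adjusted p = 0.0104), was lost with the arrays scaled to 1 median (adjusted p = 0.356). The averaged Ro change, -1.22 ± 0.28 (adjusted p = 0.0319), was lost without either array of LPS alone (adjusted p = 0.111 and 0.0878) or without the BL6 array of Ro with LPS (adjusted p = 0.0898). Macrophage markers were also lowest in that condition, as given above.

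Mmp14, the membrane-bound activator of pro-Mmp2, rose with LPS and fell with Ro. Signals were 1535 (BALB/c) and 953 (BL6) in control cultures, 917 and 724 with RA and 284 and 556 with Ro. With LPS they were 2353 and 1680.2, 1800.2 and 3423, and 536 and 1145. Within each strain and retinoid condition the LPS array was the higher one, in 6 of 6 pairs. The averaged rise was 2.82-fold (1.50 ± 0.26, adjusted p = 0.0033) and the averaged fall with Ro 3.18-fold (-1.67 ± 0.32, adjusted p = 0.0119). Without reference to the median gene, the averaged log2 Ro change was -2.24 in BALB/c and -0.65 in BL6. The Ro call was lost in the BL6 arrays alone (adjusted p = 0.31). The strain by Ro interaction did not pass (-0.92 ± 0.46, adjusted p = 0.978). Among single conditions the LPS rise passed with RA (3.98-fold, adjusted p = 0.0163), though not without the BL6 array of RA (adjusted p = 0.114) or of RA with LPS (adjusted p = 0.111). The fall with Ro in LPS cultures (3.05-fold) lay at the threshold, with an adjusted p of 0.0499958, and was lost in 14 of 20 alternatives, among them leaving out any of the 4 arrays compared (adjusted p from 0.0611 to 0.29).

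Timp1, a secreted inhibitor of many metalloproteinases, had the largest averaged LPS change of the 10 genes relative to the median gene. Without reference to the median gene its averaged log2 change was 3.70, and the Timp2 probe set with the largest change gave -3.95. Signals without LPS were 538 (BALB/c) and 138 (BL6) in control cultures, 275 and 143 with RA and 128 and 251 with Ro. With LPS they were 4409 and 4354, 2355 and 1255, and 3355 and 3645. All 6 arrays with LPS were above all 6 without it. Timp1 rose 17.3-fold on average (4.11 ± 0.31, adjusted p = 1.8e-06), and by 21.7-fold without retinoid, 10.7-fold with RA and 22.7-fold with Ro (adjusted p = 2.2e-04, 0.00133 and 2.2e-04). These 4 calls held in all alternatives tried. Among LPS cultures the RA arrays were the lowest, with a change of -1.42 ± 0.50 that did not pass (adjusted p = 0.461). The Ro values were -0.68 ± 0.38 on average (adjusted p = 0.412).

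Timp2, which inhibits metalloproteinases and binds pro-Mmp2 on Mmp14, fell with Ro in its brightest probe set. That probe set gave 2199.8 (BALB/c) and 5308 (BL6) in control cultures, 1325 and 4050.2 with RA and 636 and 1549.9 with Ro. With LPS it gave 1747 and 2083, 1180.5 and 1426, and 159 and 494. The 4 Ro arrays did not overlap with the 4 control arrays. The Ro fall was 5.47-fold on average (-2.45 ± 0.28, adjusted p = 8.2e-04), 3.80-fold without LPS (adjusted p = 0.0231) and 7.84-fold with LPS (adjusted p = 9.2e-04). The fall without LPS was lost on leaving out any of the 4 arrays compared (adjusted p from 0.0778 to 0.186). The averaged LPS fall was 1.66-fold (-0.73 ± 0.23, adjusted p = 9.4e-04, and 0.053 with the arrays scaled to 1 median). The LPS fall in Ro cultures was 2.66-fold (adjusted p = 0.00345), and was lost without the BALB/c array of Ro with LPS (adjusted p = 0.0522). Timp2 was 2.26-fold lower in BALB/c than in BL6 (-1.18 ± 0.23, adjusted p = 0.0109).

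The probe sets of Timp2 disagreed on the size of the LPS and Ro changes and on the strain difference. Of 6 probe sets annotated to it, 5 passed the filter. The LPS change was -0.73 in the brightest and -1.40, -1.92, -3.01 and -3.53 in the other 4, all past the threshold when each probe set was fitted on its own. The one with the largest change went from 722 and 2522 in the control cultures to 38.4 and 11.4 with LPS, both in background. With Ro the brightest gave -2.44 and the others between -0.74 and -1.59, of which 3 of 4 missed the threshold (adjusted p from 0.0969 to 0.14). In LPS cultures, where the other 4 lay near or below background, their Ro values ran from -0.37 to -1.50. None of these passed (adjusted p from 0.0507 to 0.89). Without LPS none of the 4 passed for Ro either (adjusted p from 0.0637 to 0.179). For RA against Ro 3 of the 4 missed the threshold (adjusted p from 0.0925 to 0.253). With the mean of the kept probe sets in place of the brightest, the values were -2.12 for LPS and -1.47 for Ro, and the Ro change in LPS cultures, -1.19, was no longer past the threshold (adjusted p = 0.0938). For strain, 2 of the other 4 passed (-1.14 and -1.07), 1 gave -1.33 (adjusted p = 0.0806) and 1 gave -0.11 (adjusted p = 0.879). Which transcripts the probe sets read was not examined here. The sixth probe set lay between 0.558 and 7.40 on all arrays.

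**Figure D4:**
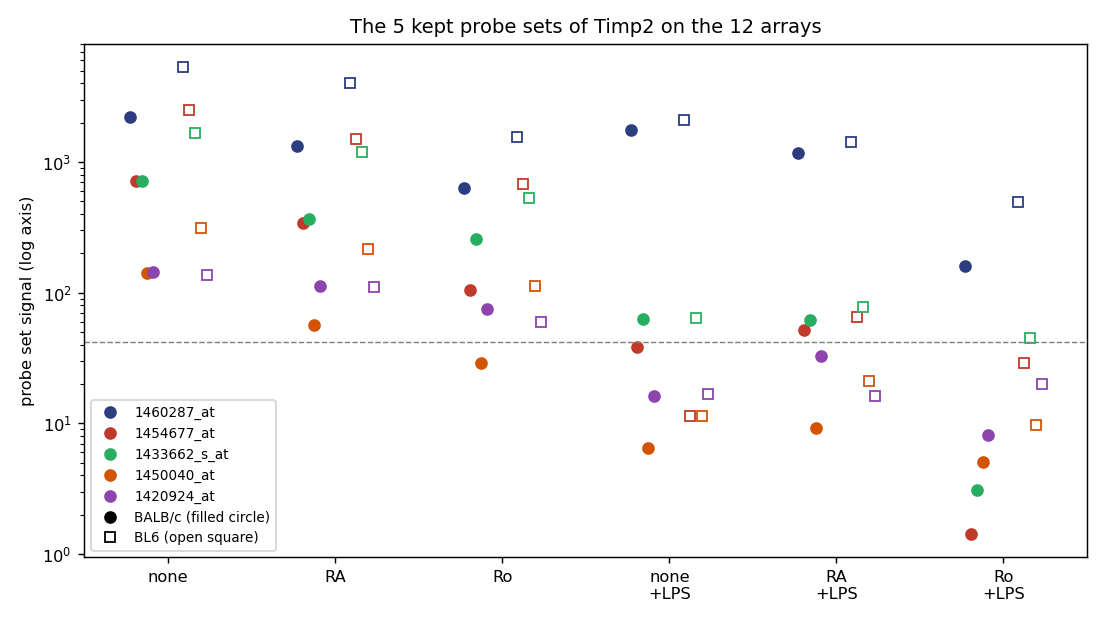
Signal of the 5 kept Timp2 probe sets on the 12 arrays (vertical log axis; filled circles BALB/c, open squares BL6; dashed line at 41.8), to compare each probe set with itself across conditions. The other 4 probe sets drop to near or below the dashed line with LPS in all retinoid conditions, while the brightest stays at 1180.5 or above with LPS except in the Ro cultures, at 159 and 494.

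Adamdec1 was close to background on most arrays and was seen best with RA in BALB/c. BALB/c signals were 47.5 in the control, 389 with RA and 23.9 with Ro, and 1.50, 63.0 and 7.13 with LPS. BL6 signals were 10.5, 27.4 and 6.58, and 2.53, 28.4 and 1.33 with LPS. Only 3 of the 12 arrays were above background, all BALB/c. The RA value was 1.69 ± 0.42 (adjusted p = 0.2). The fall with LPS (-0.57 ± 0.34, adjusted p = 0.0271) was lost after quantile normalization (adjusted p = 0.071) and without the BALB/c array of any condition but Ro without LPS (adjusted p from 0.0526 to 0.0762). In the BL6 arrays alone the value was 0.026.

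Single conditions were compared with 2 arrays against 2. LPS without retinoid gave 2 rises and 2 falls among the 10 genes, where 45.8% of all genes passed (8.05% higher, 37.7% lower). With RA it gave 3 rises and 2 falls, where 35.2% passed (6.55% higher, 28.6% lower). With Ro it gave 1 rise and 4 falls, where 30% passed (6% higher, 24% lower). Timp2, counted by its brightest probe set, is not among the LPS falls without retinoid or with RA. Its other 4 kept probe sets, each fitted on its own, fell in both. Their values ran from -1.73 to -4.61 without retinoid (adjusted p at most 2.8e-04) and from -1.31 to -2.93 with RA (at most 0.00319). Ro without LPS gave 3 falls, where 2.69% of all genes passed (1.48% higher, 1.21% lower). Ro with LPS gave 7 falls, where 21.6% passed (16% higher, 5.59% lower), with a median of -2.13 over the 10 genes in the latter. RA gave no call among them without LPS (0.145% of all genes) or with LPS (0%), and none in the RA by LPS interaction, where the lowest adjusted p of the 10 was 0.915. For strain by Ro 0.0322% of all genes passed and none of the 10, the value of Mmp9 being -1.92 ± 0.47 (adjusted p = 0.358). 

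RA and Ro were also compared with each other, at labelled amounts that differ (10 and 100 nmol). Of the 10 genes, 7 were higher with RA and 0 lower, against 19.8% of all genes past the threshold and 5.36% higher. The difference was 9.85-fold for Fn1 (3.30 ± 0.52, adjusted p = 0.00184), 7.22-fold for Mmp2 (2.85 ± 0.38, adjusted p = 7.4e-04) and 9.09-fold for Mmp8 (3.18 ± 0.30, adjusted p = 8.0e-05). It was 2.89-fold for Mmp14 (1.53 ± 0.32, adjusted p = 0.0133) and 3.68-fold for the brightest probe set of Timp2 (1.88 ± 0.28, adjusted p = 0.00165). Mmp9 (4.35 ± 0.44, adjusted p = 1.1e-04) and Adamdec1 (2.06 ± 0.42, adjusted p = 0.01) were higher too, and no fold is given because the Ro arrays averaged in background. For Mmp2, Mmp9 and Adamdec1 the 4 RA and 4 Ro arrays did not overlap. For Adamdec1 the lowest RA array (27.4) and the highest Ro array (23.9) were both in background. The share of all tested genes without overlap was not counted. Mmp12 (0.97 ± 0.28, adjusted p = 0.0778), Mmp13 (1.29 ± 0.46, adjusted p = 0.116) and Timp1 (-0.23 ± 0.38, adjusted p = 0.435) did not pass.

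Between the strains, Mmp9 was higher and Timp2 lower in BALB/c, 2 of 10 genes, against 15.3% of all genes past the threshold, 11.5% higher and 3.88% lower. Mmp2 missed the threshold at -1.04 ± 0.31 (adjusted p = 0.0733) and passed after quantile normalization (adjusted p = 0.0355). Adamdec1 gave 0.93 ± 0.34 (adjusted p = 0.0531). The 3 Mmp14 probe sets, each fitted on its own, disagreed on strain. The dimmest was lower in BALB/c (-1.18 ± 0.24, adjusted p = 0.0113). The brightest gave -0.40 (adjusted p = 0.565) and the remaining one -0.17 (adjusted p = 0.992).

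The genes most like each member across the 12 arrays, by Pearson's r of log2 signal over all tested genes, were described without a test, since the arrays share strain, LPS and retinoid. They were Wwc2, Eepd1 and Fam234a for Fn1 (r = 0.96, 0.96 and 0.94), Pde7b for Mmp2 (0.93), and Tmem86a, Hexa and Atp6ap1 for Mmp8 (each 0.97). Mmp9 was followed by Myh10 (0.99), Usp2 (0.95) and Retreg1 (0.94), and Mmp12 by Csf1r, the receptor of macrophage colony-stimulating factor (0.97), Clec4n (0.97) and Myo1f (0.96). Mmp13 was nearest to Dhps (0.95), Mmp14 to Chst1 (0.95), Timp1 to Rapgef2 (0.96), Timp2 to Tnfrsf21 (0.97) and Adamdec1 to Klk1b16 (0.95). Among the 10 genes the highest values were 0.88 for Fn1 with Mmp8, 0.87 for Mmp9 with Adamdec1 and 0.84 for Mmp12 with Timp2. The lowest was -0.68 for Mmp8 with Timp1.

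Other genes of the pathway were counted in 4 lists, to be read against all tested genes, of which 11% rose and 47.9% fell with LPS and 14.1% rose and 4.36% fell with Ro. Of 16 other metalloproteases and inhibitors 7 were tested, and 3 fell with LPS (Mmp19, Mmp23 and Mmp24, all with LPS arrays averaging in background) and none changed with Ro. Of 14 tested ADAM and ADAMTS proteases, 2 rose and 9 fell with LPS, and 2 rose and 1 fell with Ro. Adam10, a sheddase of cell surface proteins, fell 2.69-fold with LPS (-1.43 ± 0.27, adjusted p = 1.1e-04), and Adam19 rose 3.21-fold with Ro (1.68 ± 0.34, adjusted p = 0.00474). Of 19 tested matrix proteins 5 rose and 3 fell with LPS and 3 fell with Ro. Thbs1 (thrombospondin) rose 2.87-fold with LPS and fell 2.55-fold with Ro (adjusted p = 0.00452 and 0.04), and Ecm1 fell 3.86-fold with Ro (adjusted p = 0.00159).

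Of 15 tested receptors and docking proteins for fibronectin, matrix and proteases, 4 rose and 3 fell with LPS, and 2 rose and 4 fell with Ro. Itga5, the alpha chain of the main fibronectin receptor, averaged 449 ± 128 (SD, n = 6) with LPS and 78.5 ± 26.6 without it, and rose 6.50-fold (2.70 ± 0.22, adjusted p = 4.4e-06) while Fn1 fell. Among the other integrin chains of the list, Itgb7 fell with LPS by -4.15 ± 0.44 (adjusted p = 4.9e-06) and Itgb5 by -1.91 ± 0.25 (adjusted p = 1.3e-05). The LPS arrays of Itgb7 averaged 32.4, in background. Sdc4 rose with LPS (2.11 ± 0.27, adjusted p = 2.1e-04) and with Ro (1.36 ± 0.33, adjusted p = 0.00995). Sdc1, a heparan sulfate proteoglycan that binds matrix, averaged 314 ± 223 (SD, n = 4) with Ro and 2121 ± 1027 in the controls, and fell 8.46-fold (-3.08 ± 0.24, adjusted p = 7.6e-05). The groups did not overlap for Itga5 with LPS or for Sdc1 with Ro. In the averaged RA comparison no gene passed in these lists or among all tested genes.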

How the data were processed

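Signal intensity was deposited by the authors as 1 linear value per probe set and array. The software MAS5 is named, without a version, in the submitters' processing notes, and the scaling between arrays is not given in the sources used here. Array medians differed by up to 1.96-fold. Total RNA (2 ug) was labelled, per the labels' protocols. All 12 arrays were used. Probe sets were named by the platform annotation (34945 of 45101 to a single gene).

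From these intensities log2(signal + 16) was computed, and changes of dim genes are understated on this scale. The filter kept probe sets above the median of their own array on at least 2 arrays, and the kept probe set of highest mean stood for the gene. limma 3.58.1 in R 4.3.3 (lmFit, eBayes with trend) fitted retinoid, LPS and strain as additive terms for averaged comparisons and a model of 6 conditions plus strain for single conditions and interactions with LPS, on all arrays. Interactions with strain were added to the additive terms, each in a fit of its own. Every model held strain as a block: the labels give the same replicate number to the same strain, and strain differences correlated across conditions (r from 0.304 to 0.699 over 15 pairs). No fold is given where a group's mean lay under 41.8. The script was tested on simulated data. Every listed gene was described. In the other lists, up to 4 genes of smallest adjusted p past the threshold could be named for LPS and for Ro. The genes, lists and tests were chosen with earlier results of these data known. Scaling, the added constant, the filter, the probe set rule, the block, the intensity trend, each strain alone and each array left out were varied. Figures were drawn with matplotlib 3.10.9 and tables made with pandas 2.3.3 and numpy 2.4.6, under Python 3.11.15.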

Additional observations from a re-analysis of the deposited data

Results flagged for a closer look

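Mmp13 is listed because its LPS response differed between Ro cultures and cultures without retinoid, by -2.81 on the relative log2 scale in the test of that difference (adjusted p = 0.0449 by limma, and from 0.00635 to 0.314 over the alternatives).

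Mmp2 is listed because its log2 differences at the deposited scaling, without reference to the median gene, had opposite signs in the strains. With LPS, the mean log2 difference of the 3 BALB/c pairs minus that of the 3 BL6 pairs was -1.10, with all BALB/c pairs negative and all BL6 pairs positive. With RA the same value over 2 pairs in each strain was -1.78. Relative to the median gene, the LPS value of Mmp2 in BALB/c alone was 0.0031, so its sign there rests on the scaling. The opposite signs themselves are no test, and the interaction terms in limma did not pass (adjusted p = 0.494 for LPS and 1 for RA).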

How the results depend on the processing

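Of 48 called changes of the 10 genes, 24 kept their direction and their side of the threshold under every alternative other than the fits of single probe sets, as did 918 of the 1021 values over those alternatives. The LPS value of Adamdec1 reversed, to 0.026 in the BL6 arrays alone. With the arrays scaled to 1 median, 5 genes in place of 8 were called with LPS: Fn1, Mmp8, Mmp14 and Timp1 as before, and Mmp13 as a new call. Averaging from the model of 6 conditions added 1 gene with RA (Mmp9, adjusted p = 0.0278). The BL6 arrays alone gave 2 genes with Ro (6 in all arrays) and 4 for RA against Ro (7). Without the replicate block, calls went from 5 to 3 for LPS with Ro, from 3 to 1 for Ro without LPS, from 7 to 4 for Ro with LPS and from 1 to 0 for Ro by LPS, and stayed within 1.5 times elsewhere. The Ro by LPS count was 2 after quantile normalization, with the arrays scaled to 1 median and with 64 as the added constant, and 0 with 1 as the constant, without the filter or without the intensity trend. Leaving out each array in turn gave 6 to 9 genes for LPS, 0 to 1 for RA, 5 to 6 for Ro, 7 to 9 for RA against Ro and 2 to 4 for strain. For LPS it gave 4 to 5 without retinoid, 3 to 7 with RA and 3 to 5 with Ro. For Ro it gave 1 to 4 without LPS, 4 to 7 with LPS and 0 to 2 for the interaction. It gave 0 throughout for RA in either LPS condition and for the other interactions. Fits of each kept probe set on its own were added after seeing the data. Mmp9 in BL6 and Adamdec1 lay near background, so that the size of their changes depends on the added constant. With 2 arrays per condition, the number of arrays limits the precision.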

Other observations

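Plau, the urokinase gene, is a member of the receptor and docking list and was chosen after its values were seen. Its signal ran from 43.2 to 1789.8 on the 6 BALB/c arrays and from 6.23 to 23.7 on the 6 BL6 arrays, which were all in background. The strains did not overlap. Which bases the probes read in either strain was not examined here. Also chosen after their values were seen, Cd44, a hyaluronan receptor, was 1.89-fold lower in BALB/c (-0.92 ± 0.16, adjusted p = 0.0071), and Emilin2, a matrix glycoprotein, was 2.54-fold higher (1.34 ± 0.29, adjusted p = 0.00589).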
